A study of Mus musculus with 82 samples.

Results

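The genes described here are the 37 integrin and laminin subunit genes of the mouse, taken by their symbols from the 21887 protein-coding genes on assembled chromosomes. They comprise 18 integrin alpha genes (Itga), 8 integrin beta genes (Itgb) and 11 laminin genes (Lama, Lamb, Lamc). What was measured is where 4 tagged T-box proteins bound the genome around these genes. The series holds 82 mouse samples, and 6 of its 12 ChIP-seq libraries stand behind the 4 peak lists used here. All came from A2lox.Cre embryonic stem cells with a knockout of Eomes and of Brachyury (dKO), grown as embryoid bodies and collected on day 5. Every group received activin A at 30 ng/ml and doxycycline at 5 µg/ml from day 2, which switched on 1 transgene. EoGFP cells expressed Eomes with a GFP tag and BraGFP cells Brachyury with a GFP tag, with 2 anti-GFP libraries each. EoV5 cells expressed Eomes with a V5 tag and EoVP16 cells Eomes joined to the VP16 activation domain, with 1 anti-V5 library each. Native Eomes and Brachyury were thus absent by design, and how the level of each transgene compares with that of the native protein is not given in the sources used here. Peak lists do not show which cell types the embryoid bodies held.

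Integrins are heterodimers of an alpha and a beta chain that sit in the plasma membrane, bind matrix proteins outside the cell and couple them to actin inside it. Laminins are trimers of an alpha, a beta and a gamma chain and form the sheet of the basement membrane to which epithelial cells attach. In the gastrulating embryo, cells of the epiblast cross a laminin-rich basement membrane at the primitive streak. Eomes and Brachyury are T-box transcription factors expressed there.

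The EoGFP list held 30129 peaks, BraGFP 27588, EoV5 38193 and EoVP16 36203. Each list was a single peak set, so no value here has a replicate spread, and intervals are 95% intervals for counting error only. The lists were kept above a minimum pileup, the number of stacked fragments at the summit, of 120, 40, 60 and 36 in that order. Because those minimums differ and read depth is unknown from these files, a larger count in one list does not mean more binding. A peak was credited to a gene when its midpoint lay within 50 kb of the gene span in GRCm38 coordinates (mm10). By this rule 143 EoGFP, 105 BraGFP, 159 EoV5 and 185 EoVP16 peaks lay near the 37 genes.

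Sequences upstream of 4 of these genes are shown first, because their starts range from a site of all 4 constructs to no peak. Each is the 250 bases before a RefSeq transcription start on GRCm38.p6, written 5′ to 3′ on the strand of the gene. Capitals mark the T-box core GGTGTG or its reverse complement CACACC. The Itgb1 window (chr8:128685404-128685653, plus strand) lay under a peak of all 4 constructs. The Itga1 window (chr13:115101965-115102214, minus strand) lay under EoGFP, BraGFP and EoVP16 peaks, and the Itga5 window (chr15:103366792-103367041, minus strand) under EoV5 and EoVP16 peaks. The Itga4 window (chr2:79255176-79255425, plus strand) lay under no peak and held the core on both strands, the first starting 165 bases before the start.
Itgb1: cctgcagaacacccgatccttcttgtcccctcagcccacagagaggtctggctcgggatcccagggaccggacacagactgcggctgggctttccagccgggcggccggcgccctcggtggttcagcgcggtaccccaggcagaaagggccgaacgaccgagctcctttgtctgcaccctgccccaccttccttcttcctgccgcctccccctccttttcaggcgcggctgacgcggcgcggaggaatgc
Itga1: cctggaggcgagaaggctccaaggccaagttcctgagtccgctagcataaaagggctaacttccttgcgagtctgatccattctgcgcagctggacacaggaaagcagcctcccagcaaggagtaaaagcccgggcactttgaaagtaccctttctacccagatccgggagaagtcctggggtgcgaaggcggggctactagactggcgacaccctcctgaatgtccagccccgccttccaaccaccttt
Itga5: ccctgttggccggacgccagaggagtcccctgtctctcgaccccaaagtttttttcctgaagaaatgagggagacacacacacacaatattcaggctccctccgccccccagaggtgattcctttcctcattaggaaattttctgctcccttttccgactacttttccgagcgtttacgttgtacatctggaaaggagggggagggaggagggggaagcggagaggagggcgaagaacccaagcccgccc
Itga4: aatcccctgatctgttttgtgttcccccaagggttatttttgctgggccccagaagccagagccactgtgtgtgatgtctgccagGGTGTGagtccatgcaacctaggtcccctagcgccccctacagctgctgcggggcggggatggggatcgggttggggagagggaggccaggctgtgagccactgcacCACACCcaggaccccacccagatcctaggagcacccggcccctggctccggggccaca

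Nearly all of these genes had a peak of every construct in a neighbourhood of 50 kb. Within 50 kb, 37 of 37 had an EoGFP peak, 36 a BraGFP peak, 36 an EoV5 peak and 37 an EoVP16 peak. Over all coding genes the shares were 81.1%, 76.5%, 83.0% and 84.2%. Itga4, the alpha chain of a receptor for fibronectin and vascular cell adhesion molecules, was without a BraGFP peak. Itga1, a collagen receptor chain, was without an EoV5 peak. Thus 35 of 37 had a peak of every list, against 68.8% of coding genes. These genes are long, with a median span of 62.5 kb (10.7 to 636) against 17.2 kb for all coding genes, and a longer gene has a larger window. Of the 4 members that span under 20 kb, 4 had a peak in each list, against 73.9%, 68.7%, 76.4% and 77.4% of coding genes of that length. Of the 22 members that span 20 to under 100 kb, 22, 21, 22 and 22 had a peak in the 4 lists, where 88.3%, 83.6%, 89.1% and 91.3% of coding genes of that length did. Among the 11 members of 100 kb or more the counts were 11, 11, 10 and 11, against 93.0%, 91.8%, 95.5% and 95.4%. The counts depended on the window and on crediting. With a 10 kb window 33, 24, 31 and 32 members had a peak (EoGFP, BraGFP, EoV5, EoVP16). With peaks credited to the nearest coding gene only, 31, 25, 30 and 32 did. Coding-gene shares at these 2 settings were not computed.

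**Figure D1:**
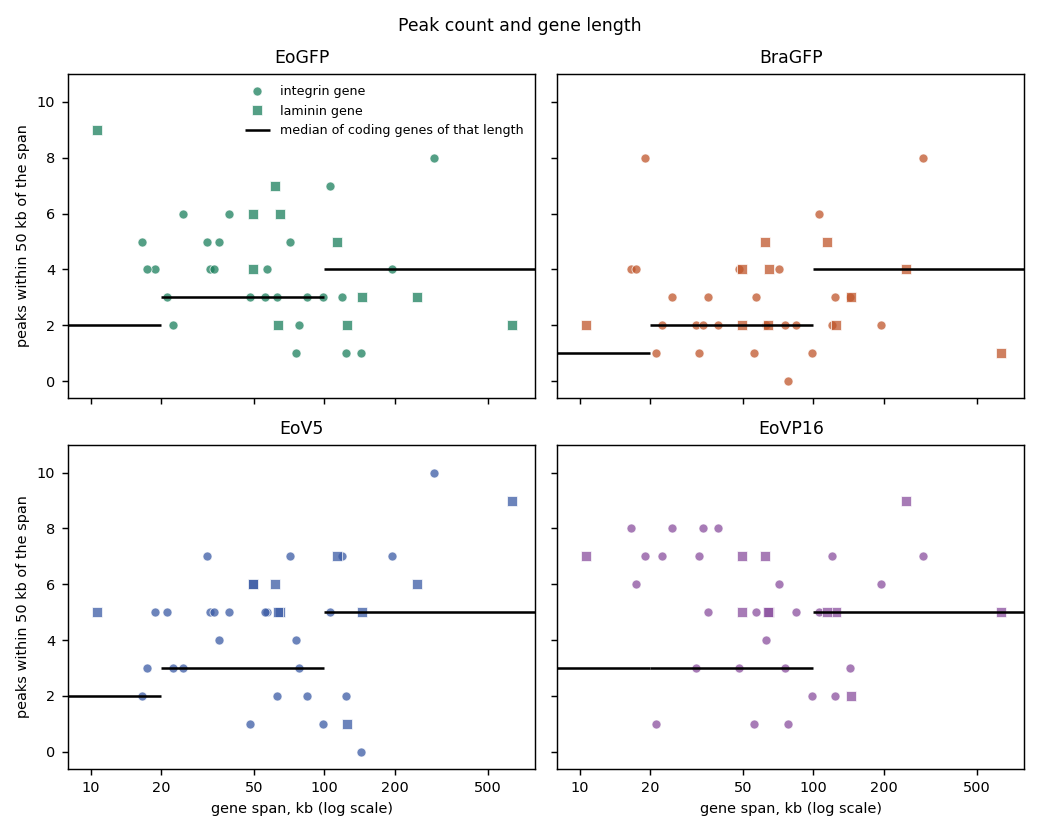
Number of peaks within 50 kb (vertical axis) against gene span in kb (horizontal axis, log scale) for the 26 integrin genes (circles) and 11 laminin genes (squares), 1 panel per construct. Black lines give the median count of all coding genes in 3 length classes. For EoGFP and spans of 20 to under 100 kb it was 3, where the members' median was 4. For spans of 100 kb or more the members' medians were 3, 3, 6 and 5, against 4, 4, 5 and 5 (EoGFP, BraGFP, EoV5, EoVP16).

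Per 100 kb of window, the median member had 2.34 EoGFP, 1.44 BraGFP, 2.56 EoV5 and 2.71 EoVP16 peaks. The medians over all coding genes were 1.86, 1.46, 1.92 and 2.33. Counting each base and each peak once, the windows of the 37 genes held 2.08 EoGFP peaks per 100 kb, which was 1.36 times the density over all coding genes (1.15 to 1.60). The ratio was 1.12 for BraGFP (0.914 to 1.35), 1.27 for EoV5 (1.08 to 1.48) and 1.46 for EoVP16 (1.26 to 1.68). The pooled density of all coding windows was 1.53, 1.37, 1.82 and 1.85 (EoGFP, BraGFP, EoV5, EoVP16). The median coding gene lay above it in every list, so 1 is not the ratio of a typical gene, here or below. Members' medians over those of coding genes gave ratios of 1.26, 0.984, 1.33 and 1.16. Inside the gene spans alone, the ratio of pooled densities was 0.987 for EoGFP (0.748 to 1.28), 1.00 for EoV5 (0.779 to 1.27) and 1.02 for EoVP16 (0.80 to 1.29). For BraGFP it was 0.696 (0.490 to 0.960), from 37 peaks inside the 37 spans. The higher pooled density of EoGFP, EoV5 and EoVP16 peaks around members thus appeared with the flanks counted, not in the pooled gene bodies. Lama2 makes up 636 kb of those bodies, with 2 EoGFP, 1 BraGFP, 7 EoV5 and 5 EoVP16 peaks inside. The ratio inside spans was not computed without it.

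The flanks belong in part to other genes. A median of 2 other coding genes (0 to 8) reached into a member's window, and a median of 3 into that of any coding gene. Within each length class, however, the members' median was higher than that of coding genes. It was 5.5 against 3 for spans under 20 kb (4 members) and 2.5 against 2 for 20 to under 100 kb. For spans of 100 kb or more it was 2 against 1. The coding gene nearest to the peak was a member for 51.7% of the EoGFP peaks (43.6 to 59.8), 55.2% of BraGFP (45.7 to 64.4), 60.4% of EoV5 (52.6 to 67.6) and 49.7% of EoVP16 (42.6 to 56.9). Peaks within 1 kb of either end of some coding gene made up 40.6%, 30.5%, 25.2% and 37.8% of those near members. Over all peaks near coding genes these shares were 32.3%, 19.3%, 19.95% and 32.4%. Which of these genes, if any, a peak acts on was not tested.

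**Figure D2:**
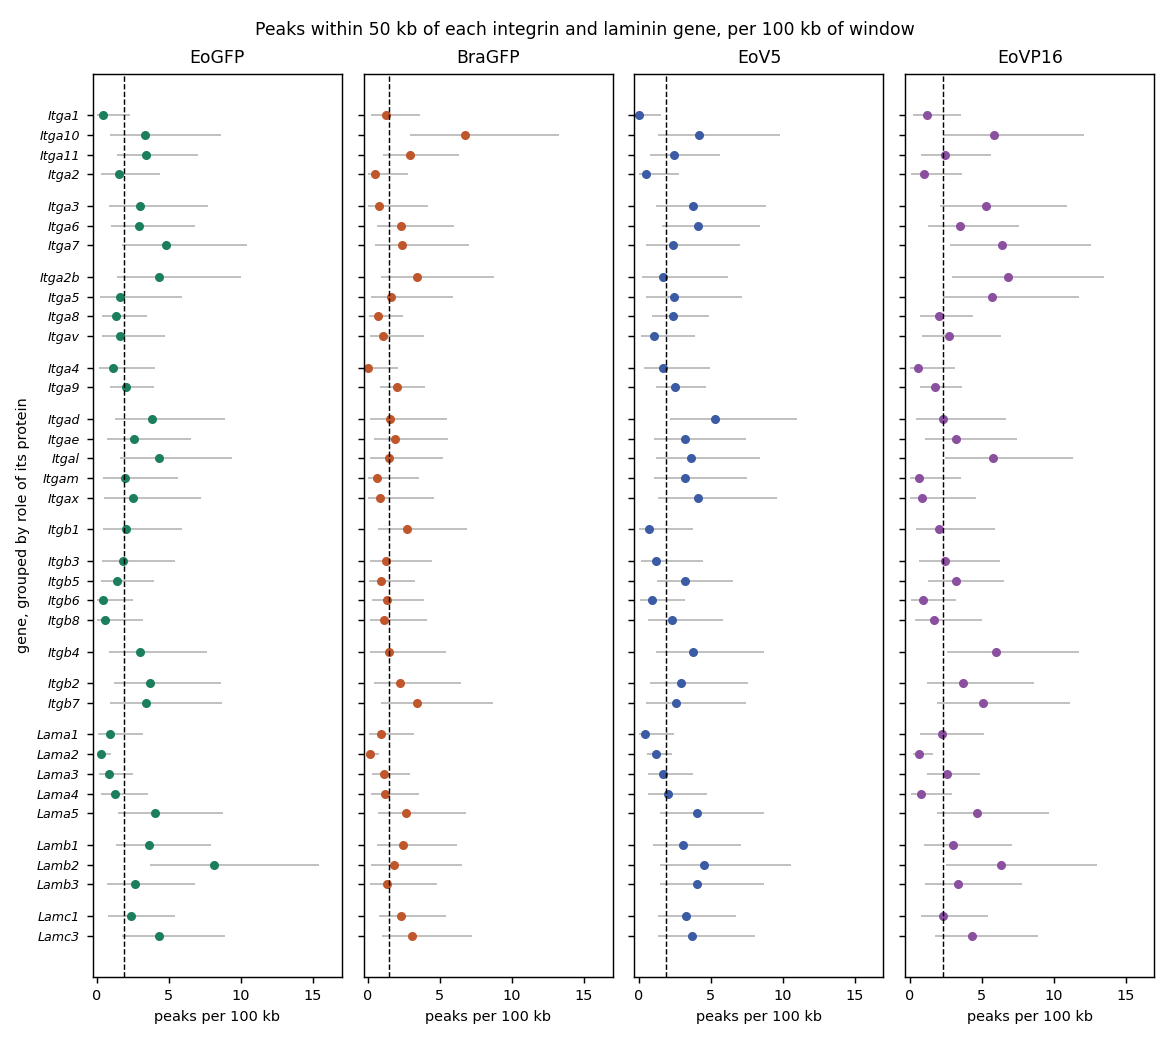
Peaks per 100 kb of window (horizontal axis) for 36 of the 37 genes, grouped by the role of the protein, 1 panel per construct. Grey bars are exact 95% Poisson intervals and the dashed line is the median of all coding genes. The point farthest right in the EoGFP panel is Lamb2 at 8.13, and in the BraGFP panel Itga10 at 6.73.

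Among the collagen-binding alpha chains, Itga10, a receptor chain of cartilage cells, had 4 EoGFP, 8 BraGFP, 5 EoV5 and 7 EoVP16 peaks. Its 6.73 BraGFP peaks per 100 kb (2.90 to 13.3) were the highest of the 37 genes and stood at the 99.4th percentile of coding genes. The window also held 8 other coding genes, and 4 of the 8 BraGFP peaks lay at the end of another gene. Itga10 itself had a site of all 4 constructs just inside its downstream end (chr3:96663444-96664248), with an EoV5 pileup of 119 and an EoVP16 pileup of 124. Itga11, a collagen receptor of fibroblasts, had 7, 6, 5 and 5 peaks in the order EoGFP, BraGFP, EoV5 and EoVP16, which is kept below. Inside it, a site of EoGFP, EoV5 and EoVP16 lay 47.6 kb from the nearer end and a site of all 4 constructs 51.1 kb from it. Itga1 had 1, 3, 0 and 3 peaks and its neighbour Itga2, which also encodes a collagen receptor, 3, 1, 1 and 2. Per 100 kb of window, both genes stood below the coding-gene median in every list. The 4 collagen-binding genes together had 1.41 times the coding-gene density of EoGFP peaks (0.790 to 2.33), 1.79 of BraGFP (1.04 to 2.87), 0.870 of EoV5 (0.434 to 1.557) and 1.25 of EoVP16 (0.714 to 2.03).

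Among the laminin-binding alpha chains, Itga3, Itga6 and Itga7 counted together had 2.28 times the coding-gene density of EoGFP peaks (1.28 to 3.77), 1.92 times that of EoV5 (1.07 to 3.17) and 2.65 times that of EoVP16 (1.64 to 4.05). The BraGFP ratio was 1.36 (0.589 to 2.69), and none of the 8 BraGFP peaks lay inside the 3 spans. These spans are short, at 32.4, 71.5 and 24.9 kb, and coding-gene spans held 1.53 BraGFP peaks per 100 kb. Inside the 3 spans the density ratios were 2.34 for EoGFP (0.760 to 5.46), 3.19 for EoV5 (1.38 to 6.28) and 2.73 for EoVP16 (1.10 to 5.62). They rest on 5, 8 and 7 peaks. Itga6, a laminin receptor chain of stem and epithelial cells, had 5, 4, 7 and 6 peaks. Of these, 3 EoGFP, 5 EoV5 and 4 EoVP16 peaks lay inside the gene. The tallest, at chr2:71833101-71834066, had an EoV5 pileup of 581 fragments (535 to 630) and overlapped EoGFP and EoVP16 peaks but no BraGFP peak. Itga7, the laminin receptor chain of muscle, had 6, 3, 3 and 8 peaks, with 6 other coding genes in the window and 4 of the 6 EoGFP peaks at the end of another gene. Itga3, a laminin receptor chain of epithelia, had 4, 1, 5 and 7. An EoVP16 peak 8.22 kb outside Itga3 (chr11:95083770-95086349) reached a pileup of 160 (136 to 187).

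In the group that recognises the RGD tripeptide, Itga8, the receptor chain for nephronectin in kidney mesenchyme, had 4, 2, 7 and 6 peaks over a span of 195 kb. Its 4 EoGFP peaks all lay in a stretch of the gene body between chr2:12181761 and chr2:12206594, and each overlapped an EoV5 and an EoVP16 peak. The EoV5 pileups at these sites were 445, 493, 273 and 272, against a median of 98 for EoV5 peaks near coding genes. The EoVP16 pileups were 111, 84, 78 and 78, against a median of 54. Neither of the 2 BraGFP peaks in Itga8 overlapped them, although 1 of these lay within the same stretch. In peaks per 100 kb the gene stood at the 39.1st percentile of coding genes for EoGFP and the 57.9th for EoV5. The 4 RGD-binding alpha genes together had ratios to the coding-gene density of 1.27 (0.695 to 2.13), 1.02 (0.488 to 1.87), 1.07 (0.584 to 1.79) and 1.96 (1.28 to 2.87).

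Itga2b, the platelet fibrinogen receptor chain, had 5, 4, 2 and 8 peaks, and its 6.86 EoVP16 peaks per 100 kb (2.96 to 13.5) were the highest of the 37 genes. Itga5, the main fibronectin receptor chain, had 2, 2, 3 and 7. The tall 4-construct site in the Itga5 window (chr15:103304120-103306402) lay 39.0 kb away and was nearest to Gpr84. A site inside Itga5, at 5.19 kb from the nearer end, had EoGFP, EoV5 and EoVP16 peaks with pileups of 167 and 73 in the last 2. Itgav, which pairs with several beta chains, had 3, 2, 2 and 5 peaks.

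Itga9, a receptor chain for tenascin, had the most peaks of any member, 33 over the 4 lists (8, 8, 10 and 7), over a span of 294 kb. Per 100 kb this was 2.03, 2.03, 2.54 and 1.78, at the 55.1st, 67.5th, 60.7th and 40.2nd percentiles of coding genes. Inside the gene, its 7 EoGFP peaks all overlapped EoV5 peaks and only 1 overlapped a BraGFP peak. The related Itga4 had 2, 0, 3 and 1, with both EoGFP peaks inside the gene and overlapping EoV5 peaks of pileup 105 and 239.

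The genes of the 5 leukocyte alpha chains, whose proteins are made by lymphoid and myeloid cells, together had 1.94 times the coding-gene density of EoGFP peaks (1.11 to 3.15). Their ratios were 0.9499 for BraGFP (0.382 to 1.96), 1.94 for EoV5 (1.17 to 3.02) and 1.71 for EoVP16 (0.995 to 2.74). These EoGFP and EoV5 intervals overlap those of the laminin-binding alpha chains. Inside the 5 leukocyte alpha genes lay 2 of the 16 EoGFP, 1 of the 7 BraGFP, 3 of the 19 EoV5 and 2 of the 17 EoVP16 peaks. Itgal, a lymphocyte receptor chain for ICAM proteins, had 6, 2, 5 and 8 peaks, none of them inside the gene and none nearest to it. Itgam, Itgax and Itgad, which encode leukocyte alpha chains, lie next to each other on chromosome 7 and share peaks. Itgam had 3, 1, 5 and 1 peaks, Itgax 3, 1, 5 and 1, and Itgad 5, 2, 7 and 3. The highest EoVP16 pileup near any member, 188 (162 to 217), belonged to a site 0.881 kb beyond Itgam, where the EoV5 pileup was 311 (277 to 348). An EoV5 peak nearest to Itgad (chr7:128165717-128166683) had a pileup of 340 (305 to 378) and overlapped an EoGFP peak but no EoVP16 or BraGFP peak. Itgae, which binds E-cadherin, had 4, 3, 5 and 5 peaks, of which 1, 0, 1 and 2 lay inside it.

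The common beta chain Itgb1, which partners most of the alpha chains above, had 3, 4, 1 and 3 peaks. No other coding gene reached into its window. Its single EoV5 peak was part of the 4-construct site over its start (chr8:128685034-128686697), with an EoV5 pileup of 78 and an EoVP16 pileup of 90. A second site, 31.1 kb from the gene, had EoGFP, BraGFP and EoVP16 peaks. Of the beta partners of Itgav, Itgb5, a vitronectin receptor chain, had 3, 2, 7 and 7 peaks, with a 4-construct site in the gene body 49.5 kb from the nearer end. Itgb3, made by platelets and osteoclasts, had 3, 2, 2 and 4. Itgb6 and Itgb8, whose dimers activate TGF-beta, had 1, 3, 2 and 2 and 1, 2, 4 and 3. The 4 genes together had 0.668 times the coding-gene density of EoGFP peaks (0.288 to 1.32), 0.842 of BraGFP (0.385 to 1.60), 1.05 of EoV5 (0.589 to 1.74) and 1.11 of EoVP16 (0.633 to 1.80), and all 4 intervals hold 1.

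Itgb4, the chain of hemidesmosomes that pairs with Itga6, had 4, 2, 5 and 8 peaks, all in the flanks. Its tallest EoVP16 peak (pileup 158, 134 to 185) lay 41.0 kb away and was nearest to Sap30bp. The leukocyte beta chains Itgb2 and Itgb7 had 5, 3, 4 and 5, and 4, 4, 3 and 6. Of these peaks only 1 lay inside the genes, an EoVP16 peak in Itgb7. The density ratios of these 2 genes together were 2.33 (1.06 to 4.41), 2.02 (0.814 to 4.17), 1.52 (0.611 to 3.13) and 2.36 (1.18 to 4.22).

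The 5 laminin alpha genes together had 0.613 times the coding-gene density of EoGFP peaks (0.350 to 0.995), 0.60 of BraGFP (0.328 to 1.01), 0.869 of EoV5 (0.573 to 1.26) and 0.889 of EoVP16 (0.591 to 1.29). Of these intervals the EoGFP one alone does not hold 1. Without Lama2, whose window is the longest, the ratios were 0.943 (0.516 to 1.58), 0.981 (0.522 to 1.68), 1.02 (0.604 to 1.61) and 1.28 (0.815 to 1.93), an alternative chosen after seeing the data. Lama1, a chain of the first embryonic basement membranes, had 2, 2, 1 and 5 peaks. The EoGFP, BraGFP and EoVP16 lists each had a peak at its end (chr17:67696856-67698927), and the EoV5 list had none there. Lama2, the muscle laminin chain, had 2, 1, 9 and 5 over 636 kb, or 0.272, 0.136, 1.22 and 0.679 per 100 kb. Lama4, found in vessel walls, had 3, 3, 5 and 2. Lama3, a chain of the epithelial laminin of skin, had 3, 4, 6 and 9. The tallest EoV5 peak near any member lay in the body of Lama3, 57.9 kb from the nearer end (chr18:12390598-12392039). Its pileup was 1000 (939 to 1064), at the 99.6th percentile of the whole EoV5 list, and its fold enrichment over the caller's background was 143. An EoGFP peak overlapped it, the EoVP16 pileup there was 64, and no BraGFP peak overlapped. Lama5, the most widely made alpha chain in the embryo, had 6, 4, 6 and 7 peaks on a span of 49.5 kb. It had a 4-construct site at its end (chr2:180224508-180226311).

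**Figure D3:**
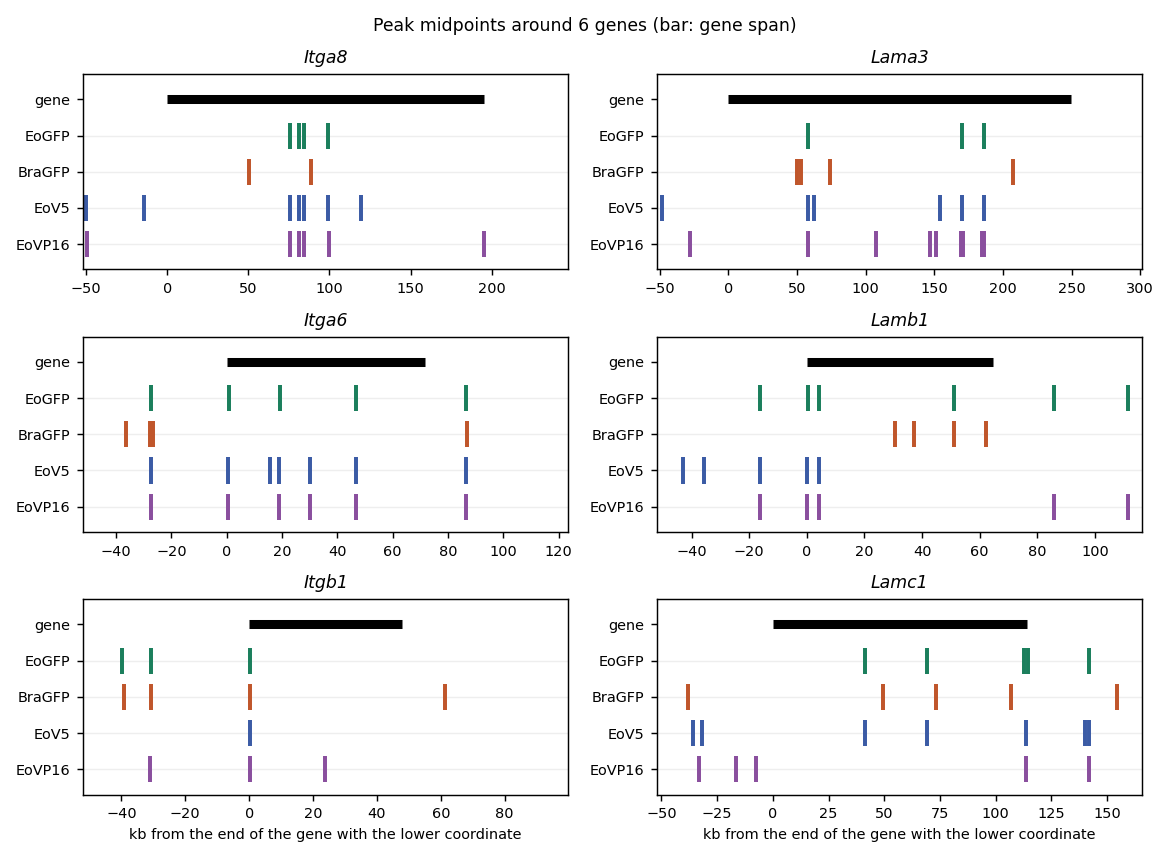
Peak midpoints of the 4 constructs around 6 genes, as distance in kb from the end of the gene with the lower coordinate. The black bar is the gene span. The aligned EoGFP, EoV5 and EoVP16 ticks inside Itga8, with pileups of 272 to 493 in EoV5, have no BraGFP tick at the same place, whereas the tick over the start of Itgb1 is shared by all 4.

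Laminin beta genes had more peaks per length than the coding-gene average for the Eomes constructs. The ratio was 2.92 for EoGFP (1.76 to 4.56), 2.07 for EoV5 (1.18 to 3.36), 2.17 for EoVP16 (1.26 to 3.47) and 1.38 for BraGFP (0.595 to 2.71). Inside the 3 genes lay 5 of the 19 EoGFP, 4 of the 16 EoV5, 2 of the 17 EoVP16 and 4 of the 8 BraGFP peaks. Lamb2, a chain of muscle and kidney basement membranes, had 9, 2, 5 and 7 peaks, and its 8.13 EoGFP peaks per 100 kb (3.72 to 15.4) were at the 99.0th percentile of coding genes. The gene spans only 10.7 kb, 7 other coding genes reach into its window, and 5 of the 9 EoGFP peaks lay at the end of another gene. The tallest EoV5 peak in that window (pileup 483, 441 to 528) was nearest to Qrich1. Lamb1, a chain of the first embryonic laminins, had 6, 4, 5 and 5 peaks. Sites of EoGFP, EoV5 and EoVP16 stood 16.1 kb outside its lower-coordinate end and 0.398 and 4.32 kb from it. All 4 BraGFP peaks lay farther along the gene body, and 1 of these overlapped an EoGFP peak. Lamb3, partner of Lama3, had 4, 2, 6 and 5.

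Lamc1, the gamma chain of most laminins, had 5, 5, 7 and 5 peaks. No site around Lamc1 combined BraGFP with another construct, although 3 of the 5 BraGFP peaks lay inside the gene. Its end carried a site of EoGFP, EoV5 and EoVP16 (chr1:153331165-153334227), and a taller one lay 28.0 kb beyond it, with pileups of 275 in EoV5 and 95 in EoVP16. Lamc3 had 25 peaks over the 4 lists (7, 5, 6 and 7), the most of any laminin gene. An EoV5 peak of pileup 386 (348 to 427) lay 16.4 kb outside it and overlapped an EoGFP peak. The laminin gamma genes together had density ratios of 1.94 (1.06 to 3.25), 1.70 (0.851 to 3.05), 1.86 (1.06 to 3.02) and 1.61 (0.879 to 2.70).

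The comparison of EoGFP with BraGFP asks where the 2 factors share sites. Near members, 43 of 143 EoGFP peaks overlapped a BraGFP peak by at least 1 bp (30.1%, 23.2 to 38.0), and 28.6% did near all coding genes. In the other direction it was 43 of 105 BraGFP peaks (41.0%, 32.0 to 50.5), against 31.7%. This share was 26.9% with a 10 kb window, against 33.5% near coding genes. Without peaks at coding gene ends, an alternative chosen after seeing the data, it was 26.0% against 20.8%. For integrin genes the share of EoGFP peaks was 33 of 94 (35.1%, 26.2 to 45.2) and for laminin genes 10 of 49 (20.4%, 11.5 to 33.6), with intervals that overlap. A gene was called rich in a construct when it had at least 3 of its peaks and at least 2 times as many as of the other. By this rule 11 members were EoGFP-rich, where 21.7% of coding genes were. They were Itga2, Itga3, Itga7, Itga8, Itgad, Itgal, Itgam, Itgax, Itgb4, Lamb2 and Lamb3. Itgad, Itgam and Itgax share EoGFP peaks, so their calls are not separate, although the interval below counts them as separate. Only Itga1, Itga10 and Itgb6 were BraGFP-rich, against 7.73% of coding genes. The interval of the members' EoGFP-rich share (17.5% to 45.8%) and that of the BraGFP-rich share (2.80% to 21.3%) both hold the background.

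The same comparison for EoV5 and EoVP16, 2 forms of Eomes pulled down with 1 antibody, gave 96 of 159 EoV5 peaks with an EoVP16 overlap (60.4%, 52.6 to 67.6; all coding genes 56.0%). Of EoVP16 peaks, 96 of 185 overlapped EoV5 (51.9%, 44.7 to 59.0), against 56.2%. Itga4, Itgad, Itgam, Itgax and Lama4 were EoV5-rich, 5 members against 6.15% of coding genes. Itgad, Itgam and Itgax share peaks, so these calls are not separate. Another 9 were EoVP16-rich, against 16.0%, namely Itga1, Itga2b, Itga5, Itga7, Itgav, Itgb1, Itgb3, Itgb7 and Lama1. The intervals of the members' EoV5-rich share (5.91% to 28.0%) and EoVP16-rich share (13.4% to 40.1%) both hold the background. Of the EoGFP peaks near members, 107 of 143 overlapped EoV5 (74.8%, 67.1 to 81.2), where 77.9% did near coding genes.

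Peaks that share bases were joined into sites to see which constructs met at each. Near members there were 312 sites, of which 26 held all 4 constructs (8.33%, 5.75 to 11.9), against 9.20% near coding genes. At least 1 such site lay within 50 kb of 17 members, against 45.5% of coding genes. Sites of EoGFP, EoV5 and EoVP16 without BraGFP numbered 58 (18.6%, 14.7 to 23.3), against 14.7%. A further 55 sites held BraGFP alone (17.6%, 13.8 to 22.2), against 22.5%. Of the 26 sites, 4 lay within 1 kb of the end of a member, and these belonged to Itga10, Itgb1, Lama5 and Lamb2.

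**Figure D4:**
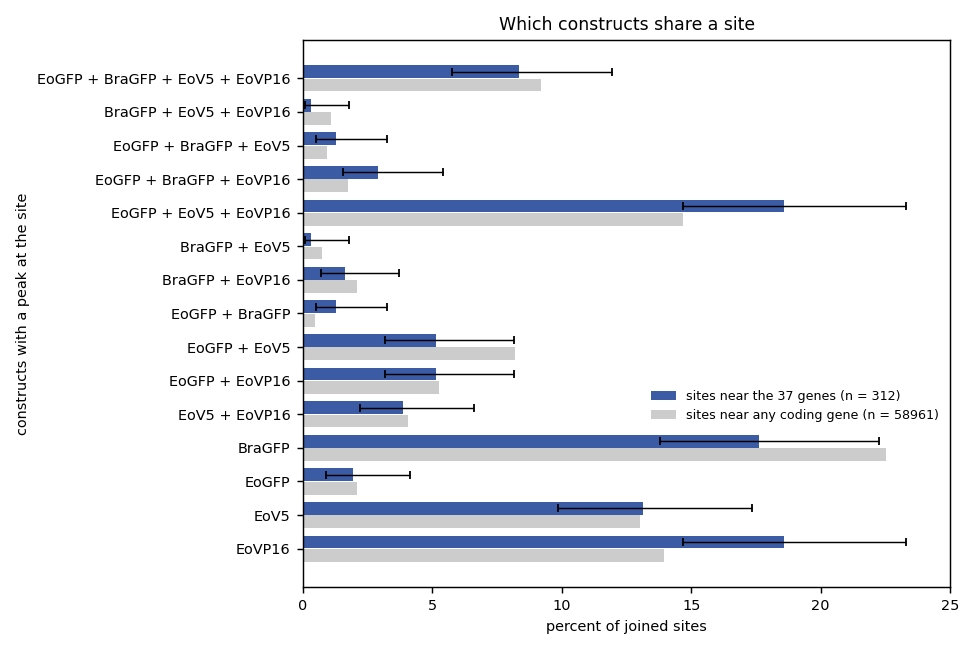
Percent of joined sites (horizontal axis) that hold each combination of constructs, near the 37 genes (blue, 312 sites, with 95% Wilson intervals) and near any coding gene (grey, 58961 sites). Sites of the 3 Eomes constructs without BraGFP make up 18.6% near members and 14.7% near coding genes.

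Heights are known for EoV5 and EoVP16 only. The median EoV5 pileup was 90 near members (quartiles 72 and 128.5) and 98 near all coding genes, and for EoVP16 it was 51 (41 and 68) against 54. Members therefore did not carry taller peaks than other coding genes at the median. Over the 97 sites with a peak of both constructs, Spearman's rho between the pileups was 0.424 and Pearson's r of their logarithms 0.391. This is a description across sites of the same 2 libraries. The site in Lama3 was the farthest from the rest, with an EoV5 pileup of 1000 and an EoVP16 pileup of 64, and the site next to Itgam was high in both.

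**Figure D5:**
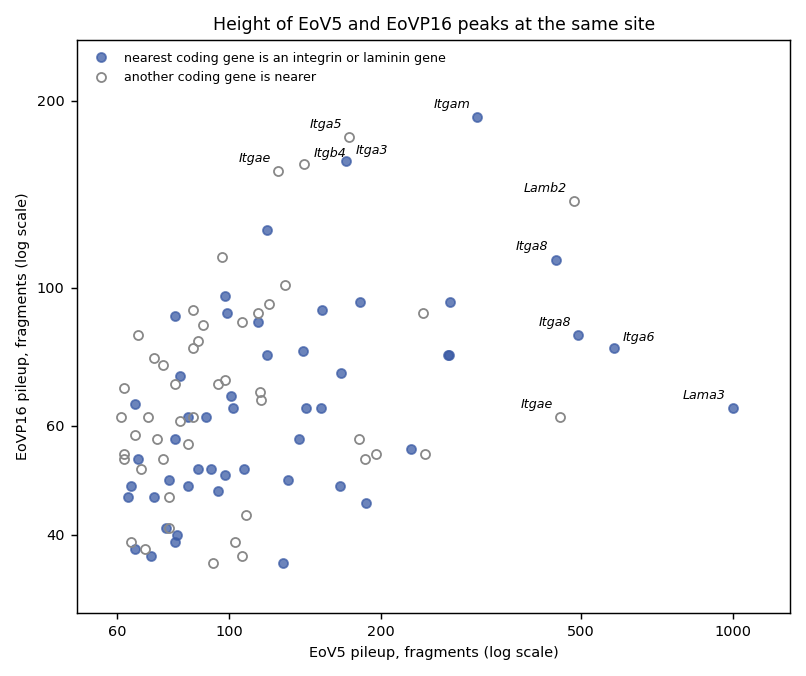
EoVP16 pileup (vertical axis) against EoV5 pileup (horizontal axis) in fragments, both on log scales, at the 97 sites with peaks of both constructs. Filled circles mark the 50 sites whose nearest coding gene is an integrin or laminin gene and open circles the other 47, and labels name the integrin or laminin gene in whose window a tall site lies.

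At the ends of the genes themselves, taken as within 1 kb of either end, 13 members had an EoGFP peak, 6 a BraGFP peak, 11 an EoV5 peak and 16 an EoVP16 peak. Over all coding genes the shares were 41.1%, 22.5%, 31.0% and 49.9%, and the corresponding members' shares were 35.1%, 16.2%, 29.7% and 43.2%. The BraGFP genes were Itga1, Itga10, Itgae, Itgb1, Lama1 and Lama5. Strand is known for the 23 members with a start listed by RefSeq. Over the 300 bases around a listed start, 9 had an EoGFP peak, 3 a BraGFP peak, 7 an EoV5 peak and 10 an EoVP16 peak. The shares over the 17492 coding genes with a listed start were 42.1%, 21.8%, 32.2% and 52.6%. Itgb1 and Lama5 were under peaks of all 4 constructs at their starts. The BraGFP starts were those 2 and Itga1.

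The T-box motif AGGTGTGA was searched on both strands of these 300-base windows, as was the core GGTGTG contained in it. None of the 26 listed starts of members held the longer motif, which 1.15% of the 21263 listed starts of coding genes did. The core was in 3 of 26 (11.5%), against 18.4% of all. It stood in the windows of Itga4, Itgav and Itgb7. Of these 3, Itgav had EoGFP and EoVP16 peaks over its start and the others had no peak there. Among all listed starts of coding genes under a peak, the core was held by 17.4% in the EoGFP list, 18.1% in BraGFP, 18.5% in EoV5 and 17.2% in EoVP16.

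The machinery that links integrins to actin was described from a list of 21 genes. All 21 had an EoGFP, an EoV5 and an EoVP16 peak within 50 kb, and 20 had a BraGFP peak, the exception being Fermt2, where 81.1%, 76.5%, 83.0% and 84.2% of coding genes had a peak (EoGFP, BraGFP, EoV5, EoVP16). Counted together their windows held 1.66 times the coding-gene density of EoGFP peaks (1.37 to 2.00), 1.68 of BraGFP (1.37 to 2.04), 1.51 of EoV5 (1.25 to 1.81) and 1.63 of EoVP16 (1.36 to 1.93). Tns3, a tensin that binds integrin tails, had the most peaks, with 10, 9, 13 and 12 over a span of 233 kb. Src, the tyrosine kinase of focal adhesions, followed with 10, 2, 9 and 14 on 47.9 kb. A list of 20 genes for other matrix ligands and basement membrane proteins had 19, 18, 18 and 18 members with a peak, against the same coding-gene shares, and density ratios of 1.05 (0.808 to 1.33), 1.08 (0.826 to 1.39), 1.12 (0.895 to 1.39) and 1.32 (1.07 to 1.61). Col4a2, a chain of the collagen of basement membranes, had 8, 10, 11 and 11 peaks. Nid1, which ties laminin to that collagen, had 7, 3, 8 and 7, and Frem2, another basement membrane protein, 4, 5, 9 and 7. The genes without a peak were Col4a4 in EoGFP, and Col4a5 and Col4a6 in the other 3 lists.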

How the data were processed

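Peak positions from ChIP-seq of 4 constructs were analysed, each list being assigned by the sample descriptions. The submitters' processing notes name the build mm10/GRCm38 and, with no role, order or settings, MACS2 (2.1.1.20160309.4), Bowtie2 (2.3.4), SAMtools (1.3.1), bedtools (2.27.0), Picard (1.56.0) and deepTools (3.0.2). The deposited EoGFP and BraGFP lists hold positions and names only, 1 list for 2 libraries each, and how those were joined is not stated. Their starts may be counted from 0 or 1. The deposited EoV5 and EoVP16 lists have the column order of a MACS2 table, with signal as the pileup in fragments at the summit and ratio as the fold enrichment over the caller's background. The minimum pileups are those in the names of the deposited lists.

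Repeated entries and unplaced contigs were left out. Genes came from a RefSeq table of GRCm38.p6, which gives spans without strand or exons. Role and pathway lists were written by hand, and the members and lists were chosen with earlier results of these data known. Genes were named as the member of each role with the most peaks, the 5 densest per list, those at the 5 tallest EoV5 and EoVP16 peaks, those without a peak and those past the richness call, plus the 2 pathway genes with the most peaks (3 where tied). Itgb8, Lama2, Lamb1 and Lamc1, and the pathway genes without a peak, were named after their values were seen. Overlap needed 1 shared bp. Shares carry Wilson intervals and counts exact Poisson intervals. The values of 1 member are not reported here, though it is in the totals. The counting was tested on simulated data. Python 3.11.15, numpy 2.4.6, pandas 2.3.3 and scipy 1.17.1 were used. Alternatives covered windows of 10 and 100 kb, gene spans alone, the wider or taller 50% of a list, equal list length, overlap rules, gene-end distance and crediting.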

Additional observations from a re-analysis of the deposited data

How the results depend on the processing

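Among the alternative values, 78 moved by no more than the counting interval or 1.5 times and 24 moved by more. The 78 include the counts of members with a peak at 10 kb, where BraGFP fell from 36 to 24. With a 10 kb window the density ratio to coding genes was 0.989 (EoGFP), 0.813 (BraGFP), 0.993 (EoV5) and 1.07 (EoVP16), and inside gene spans alone, in the same order, 0.987, 0.696, 1.00 and 1.02. The ratio of median per-gene densities was 1.16 for EoVP16. With 10 kb, 19.4% of EoGFP peaks overlapped BraGFP (29.7% near coding genes) and 26.9% the reverse (33.5%), while 4 members were EoGFP-rich (8.36% of coding genes), 1 BraGFP-rich (4.78%) and 2 EoV5-rich (3.97%). With 100 kb, 0 were BraGFP-rich (8.05%), 3 EoV5-rich (6.42%) and 3 EoVP16-rich (13.4%). Among the taller 50% of both lists, 42.7% of EoVP16 peaks near members overlapped EoV5. The share near all coding genes was not computed at that setting, so the lower value cannot be assigned to members. Within 5 kb of a gene end 11 members had a BraGFP peak (36.4% of coding genes), and at listed starts alone 3 of 23 had a BraGFP (23.1% of those listed) and 7 an EoV5 peak (32.3%). In a check chosen after seeing the data, leaving out peaks at coding gene ends, the overlap was 21.2% for EoGFP with BraGFP (22.3% near coding genes), 26.0% for the reverse (20.8%) and 48.7% for EoV5 with EoVP16 (47.1%). The density ratios without those peaks were 1.19, 0.962, 1.19 and 1.34, and against coding genes of at least 10 kb, also chosen after seeing the data, 1.29, 1.06, 1.21 and 1.39. The cause was not tested. No paired analysis was possible because each construct has 1 peak list and no result comes from a test. Depth is unknown, lists hold only peaks above their own minimum, and no replicate spread can be given.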
